A study of Mus musculus with 6 samples.

Results

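Dendritic cells of the inflamed mouse spinal cord were taken as 148 of 7121 cells that passed quality filters in 4 libraries from mice with experimental autoimmune encephalomyelitis (EAE). EAE is a model of multiple sclerosis in which mice are immunised against a myelin peptide and develop inflammatory demyelination and paralysis. A cell was included when its unique molecular identifiers (UMIs, each standing for 1 captured transcript) of Flt3, Cd209a, Ccr7, Ccl22 and Ccl17 summed to at least 5. It also had to hold at most 2 UMIs of the microglial genes Tmem119, P2ry12, Siglech, Sparc and Olfml3 together, and no UMI of Cd3d, Cd3e or Cd3g, which encode parts of the T-cell receptor complex. The microglial limit removed 23 cells that met the first criterion, and the T-cell limit 3.

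All mice were C57BL/6 and 10 weeks old. The EAE mice were sampled at disease onset and compared with healthy mice. Every spinal cord was digested with collagenase, depleted of myelin and sorted for live CD11b+ cells, so dendritic cells without surface CD11b are not represented. Cells were stained before sorting with 10 µM DCFDA, a dye that fluoresces when oxidised by reactive oxygen species (ROS), and 4 libraries came from dye-negative (ROS-) sorts and the remainder from dye-positive (ROS+) sorts. The groups were EAE ROS- (n = 2), EAE ROS+ (n = 2) and healthy ROS- (n = 2). The labels do not say whether replicates came from separate animals, so the variation between replicates behind the p-values may be technical.

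Dendritic cells capture antigen in tissue and present it to T cells on MHC class II molecules. Conventional dendritic cells arise from Flt3-dependent precursors and fall into a cDC1 branch, marked by Xcr1, Clec9a and Irf8, and a cDC2 branch, marked by Irf4, Clec10a and often Cd209a. On maturation they gain CCR7, the receptor that guides them towards lymphatic vessels, reorganise their cytoskeleton and raise costimulatory molecules; CCL17 and CCL22 are chemokines that attract CCR4-bearing T cells. In EAE, dendritic cells around vessels and meninges present myelin antigen to incoming T cells, while monocytes also differentiate into antigen-presenting cells there.

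The selection rested mostly on 2 neighbouring chemokine genes. Ccl22 lies on the plus strand of chromosome 8 at chr8:94745684-94751388 and Ccl17 follows at chr8:94809380-94812038 (GRCm38). Their promoters, from 250 bases before to 50 after the RefSeq transcription start (GRCm38.p6, plus strand), are shown because these genes supplied most of the UMIs by which cells were chosen. The RefSeq start used for Ccl17 lies inside the gene span given above, so its whole window falls within that span. Capitals mark matches to TTCNNNNGAA and TTCNNNGAA, the spacings read by STAT6 and other STAT factors, in Ccl17, and to GGGNNNNNCC, a loose form of the NF-kB motif, in Ccl22.
Ccl17 promoter, chr8:94810203-94810502: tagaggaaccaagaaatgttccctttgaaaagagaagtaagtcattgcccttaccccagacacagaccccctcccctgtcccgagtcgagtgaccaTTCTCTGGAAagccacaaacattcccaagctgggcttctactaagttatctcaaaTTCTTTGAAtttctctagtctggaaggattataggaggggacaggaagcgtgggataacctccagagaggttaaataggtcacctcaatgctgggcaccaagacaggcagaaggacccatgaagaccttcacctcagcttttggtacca
Ccl22 promoter, chr8:94745434-94745733: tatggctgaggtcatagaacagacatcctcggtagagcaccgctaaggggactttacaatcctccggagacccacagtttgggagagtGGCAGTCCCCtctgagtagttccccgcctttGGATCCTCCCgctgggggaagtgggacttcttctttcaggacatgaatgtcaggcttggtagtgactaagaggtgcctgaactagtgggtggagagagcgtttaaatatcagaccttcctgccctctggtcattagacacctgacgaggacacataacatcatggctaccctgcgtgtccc
Both strands were searched for 5 motifs. GGGNNTTTCC, a strict NF-kB form that the loose form contains, and GAGGAAGT, a PU.1 form, had no match in either window, and the remaining 3 were added after that. Of 32851 promoters of this length, 50.8% held GGGNNNNNCC, 6.95% TTCNNNNGAA, 8.30% TTCNNNGAA, 3.20% GAGGAAGT and 1.63% GGGNNTTTCC. These matches are descriptions of the sequence, and no binding was measured.

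The 5 genes of the rule are given without a test, since they chose the cells. Ccl17 had a UMI in 119 of the 148 cells (80.4%) and supplied 59.4% of all UMIs that counted towards the rule; 94 cells reached 5 UMIs through Ccl17 alone, and in 31 it was the only gene of the rule detected. Ccl22 had a UMI in 102 cells (68.9%), Ccr7 in 63 (42.6%), Flt3, the receptor for the growth factor of dendritic precursors, in 23 (15.5%), and Cd209a, a mouse homologue of the C-type lectin DC-SIGN, in 17 (11.5%). Of the 63 cells with Ccr7, 58 also had Ccl22, whereas Cd209a and Ccr7 were found together in 4 cells. The sum over the rule had a median of 16 UMIs and reached 124. The 9 cells at 5 UMIs, just inside the threshold, had 5489 counts per 1000000 UMIs (CPM) of the macrophage lysozyme gene Lyz2 and no UMI of the maturation gene Fscn1; the 16 cells at 4 UMIs, just outside, had 3146 CPM of Lyz2 and 93.6 CPM of Fscn1.

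The name dendritic cell was only partly borne out by genes that the rule did not use. The cells were split by whether Ccr7 UMIs exceeded Cd209a UMIs (60 cells), the reverse (15 cells) or neither (73 cells, of which 72 held no UMI of either gene). In the EAE ROS- libraries 1 and 2, Fscn1, the actin-bundling protein of mature dendritic cells, stood at 2056 and 1328 CPM in the Ccr7 cells. Fscn1 had a UMI in only 14 of 24 and 16 of 34 of those cells. It was at 0 in both libraries in the Cd209a cells and at 19.2 and 2.78 CPM in the cells with neither, against 3.28 and 1.91 CPM in monocyte/macrophage cells. Lyz2 ran the other way, at 1186 and 1540.1 CPM in the Ccr7 cells, 2151 and 4843 CPM in the Cd209a cells, 3280.0 and 5125 CPM in the cells with neither and 11688 and 11233 CPM in monocyte/macrophage cells. Zbtb46, a transcription factor of conventional dendritic cells, stood at 56.1 and 37.2 CPM in the Ccr7 cells, 93.5 and 84.2 CPM in the Cd209a cells, 9.59 and 22.2 CPM in the cells with neither and 3.03 and 0.478 CPM in monocyte/macrophage cells. Taken as a sum, the Ccr7 cells thus carried dendritic genes beyond the rule, though not every cell did so for Fscn1. For the Cd209a cells this rests on few UMIs, 3 and 4 of Zbtb46 in libraries 1 and 2. Their summed Lyz2 was near the level of the cells with neither gene, but it leaned on single cells. In the Cd209a cells 1 cell held 28 of 69 Lyz2 UMIs in library 1, and 1 cell held 123 of 230 in library 2. Of the 73 cells with neither, 70 held a UMI of Ccl17 and 40 one of Ccl22, and their Lyz2 lay between that of Ccr7 cells and monocytes. For them the name rests mostly on the rule genes, beside 1 and 8 UMIs of Zbtb46 in ROS- libraries 1 and 2. The ROS+ libraries held 9 of these 73 cells and 2 Ccr7 cells.

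**Figure D1:**
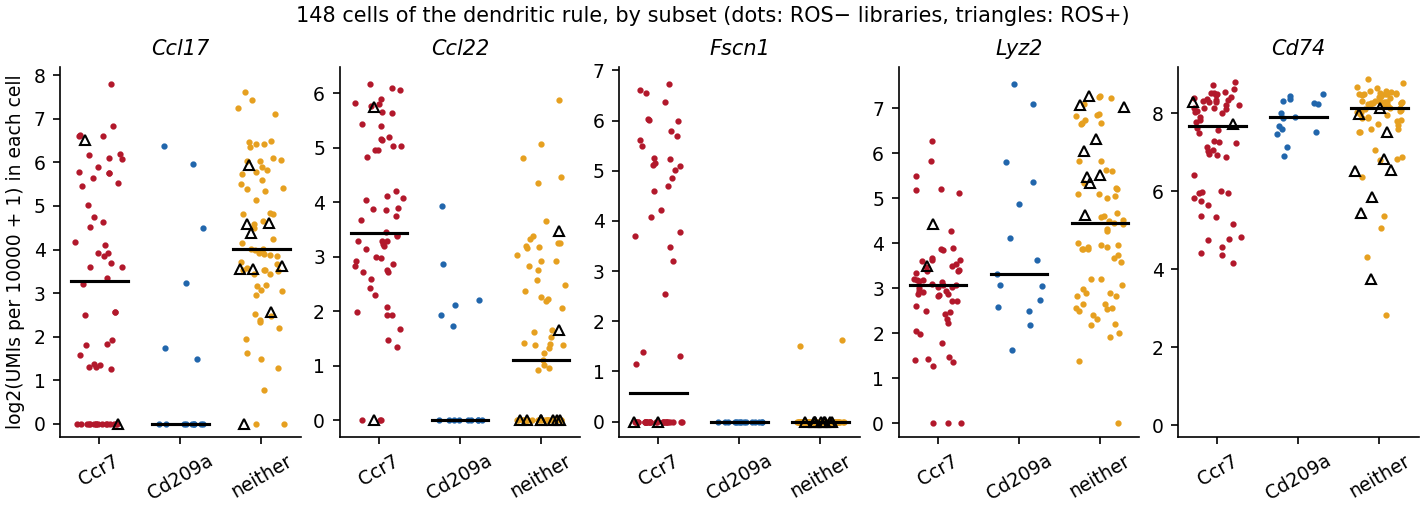
UMIs per 10000 in each of the 148 cells, as log2(value + 1), for 5 genes by subset; triangles are cells of the ROS+ libraries and bars are medians. Fscn1 lies in the Ccr7 column and Lyz2 is highest among cells with neither gene and in ROS+ cells. Cd74 is high in many cells of all columns but spreads widely, from 16.8 to 442 per 10000 among Ccr7 cells and down to 6.03 among cells with neither.

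Monocyte genes were common in the selected cells. Of 148 cells, 123 carried at least 3 UMIs of Ly6c2, Ms4a7, Plac8, Chil3 and Fn1 together, the threshold used here for monocyte/macrophage cells. Their median in EAE ROS- libraries 1 and 2 was 3 and 6 UMIs per cell in the Ccr7 cells, 25.5 and 21 in the Cd209a cells and 24 and 30 in the cells with neither, against 27 and 40 in monocyte/macrophage cells. Median depth was similar, at 6311.5 and 5142 UMIs per Ccr7 cell and 7587 and 6099 per cell with neither. Whether droplets with a pair of cells, or free RNA, account for the mixed profile was not tested: no doublet caller was run, 1 of the 148 cells lay above the depth of the deepest 5% of its library, and none of the 42 barcodes shared between libraries belonged to them.

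Across the series, 9078 of 9079 barcodes passed the filters, and library totals ran from 915197 to 23407825 UMIs. In EAE, 4846 cells formed the monocyte/macrophage comparison class (at least 3 UMIs of the 5 monocyte genes above and at most 2 of the 5 microglial genes). The microglia class held 412 cells (at least 5 UMIs of the 5 microglial genes and at most 2 of the monocyte genes). Both classes could hold at most 1 UMI of the dendritic rule genes and no T-cell UMI. The 1st and 2nd EAE ROS- libraries differed by more than counting error even within the dendritic cells, with a chi-square per degree of freedom of 2.98 over 6232 genes.

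Cells that met the rule were found in all 4 EAE libraries and in neither healthy library. All 11 such cells of the ROS+ libraries carried at least 3 monocyte UMIs, as did 123 of all 148, and none carried Fscn1. Only 1 cell per ROS+ library was a Ccr7 cell, the subset that held most Fscn1, and Il4i1 had 4 UMIs in each ROS+ library. The genes outside the rule thus give the name little support there. In ROS- libraries 1 and 2 the cells that met the rule made up 43 of 1614 cells (2.66%, exact Clopper-Pearson 95% interval 1.93 to 3.57%) and 94 of 1529 cells (6.15%, 5.00 to 7.47%). In ROS+ libraries 1 and 2 they made up 3 of 1745 cells (0.172%, 0.0355 to 0.502%) and 8 of 2233 cells (0.358%, 0.155 to 0.705%). Both ROS- shares lay above both ROS+ shares. The mean was 4.41% ± 2.46 (SD, n = 2) in ROS- and 0.265% ± 0.132 (SD, n = 2) in ROS+, a difference of -4.14 percentage points, with a two-sided exact permutation p of 0.333, the smallest that 2 against 2 libraries can give. With every cell thinned to 3000 UMIs and the threshold lowered to 3, the shares were 2.35 and 6.07% against 0.0573 and 0.280%. The healthy libraries gave 0 of 1755 and 0 of 202 cells, which allow shares of up to 0.171 and 1.49%, taking 3 cells as the limit of a count of 0. Healthy cells were shallower, with medians of 2178 and 3617.5 UMIs against 5467 to 9543 in the EAE libraries. The shallowest cell that met the rule held 2653 UMIs. Only EAE cells were thinned, so an effect of depth on the healthy counts was not tested. The intervals and limits above cover counting error only, and because both gates were sorted fractions, the shares are of sorted cells and not of the tissue.

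**Figure D2:**
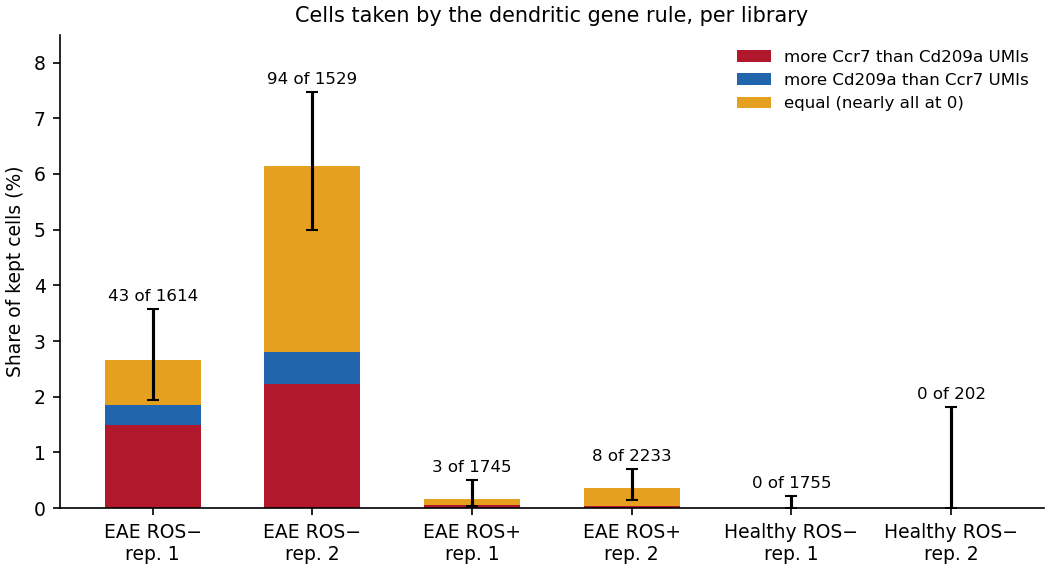
Percentage of kept cells that met the dendritic rule in each library, with exact 95% intervals. The ROS- EAE libraries stand at 2.66 and 6.15%, the ROS+ EAE libraries at 0.172 and 0.358%, and both healthy libraries at 0.

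Gene expression was compared on UMI counts summed per library and cell class. The dendritic sums came from ROS- libraries 1 and 2, as the ROS+ libraries held too few such cells. Against monocyte/macrophage cells, 1020 of 10530 genes passed an adjusted p of 0.05 in edgeR's quasi-likelihood test with the library as a block (9.69%), 550 higher (5.22%) and 470 lower (4.46%) in dendritic cells; the dendritic and monocyte sums did not overlap for 42.7% of genes, and the median log2 difference of all tested genes was -0.06. The 18 genes that defined the classes were not tested. Each ROS+ library gave only a monocyte/macrophage sum, which its own block term takes up. The log2 differences therefore compare classes within the ROS- libraries, and ROS+ monocyte values are given beside them as description. The monocyte/macrophage class was itself chosen by monocyte genes and by near absence of the dendritic ones, so genes that travel with either set differ in part by that choice. Of the increases and decreases given below, those of Apoc2, Tnfsf9, Kit, Id2, Il15, Ebi3, Il6, Ccl6, Nfkb2, Runx3, Sirpa and Psme2 did not pass with DESeq2. Those of Klrd1, Arg1, Cd63, Pdcd1lg2, Kit, H2-Oa, H2-Ob, Il15, Ebi3, Il1a, Il6, Ccl6, C1qa, Cebpb, Sirpa and Cd7 did not pass without the library block.

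Genes of dendritic maturation and migration rose together. Of 14 tested members of that list, 13 were higher and none lower, with a median log2 difference of 2.87. Fscn1 stood at 1092 and 443 normalised CPM in the dendritic sums of libraries 1 and 2. It stood at 3.33 and 1.97 in the ROS- and at 0.739 and 0.298 in the ROS+ monocyte/macrophage sums (log2 difference 8.09 ± 0.28 SE, edgeR adjusted p = 2.01e-24). Both dendritic sums exceeded every monocyte sum. Il4i1, a secreted amino-acid oxidase that restrains T cells, was at 263 and 212 CPM against 1.54 and 2.30 in ROS- monocytes (6.85 ± 0.33, adjusted p = 1.48e-19). Cacnb3, a calcium-channel subunit, was at 226 and 81.2 CPM (7.35 ± 0.48), and Nudt17 at 130 and 44.2 CPM (7.49 ± 0.69). All of these were higher in library 1, which also had the larger proportion of Ccr7 cells, 24 of 43 against 34 of 94. Serpinb6b, a serine protease inhibitor, was at 618 and 281 CPM against 5.63 and 1.31 in ROS- monocytes and no UMI in the ROS+ sums (7.13 ± 0.28). Smaller increases were found for Tmem123, a membrane receptor (2.97 ± 0.21), Socs2, a suppressor of cytokine signalling (2.86 ± 0.27), Zmynd15 (2.89), the NF-kB subunit Relb (1.85), Marcksl1 (2.06) and Cd63 (0.88).

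The count depended on which cells entered the sum. With Ccr7 cells alone, 14 of 15 tested members of the maturation list were higher and none lower, with a median of 3.65. With only the cells that held neither Ccr7 nor more Cd209a, 2 of 12 were higher and 1 lower, with a median of 0.47, and Cd63 turned to -1.07. In that fit Fscn1, Serpinb6b, Il4i1, Tmem123, Socs2, Relb, Cd86, Cd40, Irf8, Batf3 and Actb no longer passed. Calls over all genes moved as well. The fit on Ccr7 cells called 506 of 10732 genes higher and 1055 lower. The fit on cells with neither called 120 of 10548 higher and 177 lower. List counts from these fits, here and below, are to be read beside those totals. Shares of cells with a UMI after thinning were taken by class and not by subset. After thinning to 3000 UMIs, Fscn1 had a UMI in 30.2 and 15.1% of dendritic cells, 0.945 and 0.666% of monocyte/macrophage cells and 6.04 and 7.89% of microglia in ROS- libraries 1 and 2; without thinning the dendritic values were 34.9 and 18.1%. Il4i1 had one in 39.5 and 23.7% of dendritic cells and 0.945 and 0.888% of monocyte/macrophage cells.

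Several of the largest increases among well-measured genes lay outside the lists. Ramp3, which modifies receptors for calcitonin-family peptides, was at 385 and 302 CPM against 9.47 and 6.56 in ROS- and 0.517 and 1.64 in ROS+ monocytes (5.43 ± 0.24, adjusted p = 9.98e-21). Serpinb9, an inhibitor of granzyme B, was at 396 and 247 CPM against 17.9 and 8.53 in ROS- monocytes (4.65 ± 0.23). Ccnd2, a G1 cyclin, was at 792 and 1007 CPM against 110.0 and 101 (3.10 ± 0.20). These 3 genes, like the others of this paragraph, were named only if dendritic and monocyte sums did not overlap. Klrd1, a lectin receptor shared by natural killer cells and some dendritic cells, was at 315 and 182 CPM against 59.1 and 6.23 (3.44 ± 0.30). The ETS repressor Etv3 (3.00 ± 0.24), Glipr2 (2.72) and the LIM protein Csrp1 (2.67) were also among them. Klrd1 and Ccnd2 were measured in every subset. In ROS- libraries 1 and 2 Klrd1 stood at 302 and 287 CPM in the Ccr7 cells, 281 and 232 in the Cd209a cells and 316 and 106 in the cells with neither. Ccnd2 stood at 807 and 1200.2, 561 and 1263, and 777 and 789.8 CPM in the same order, against 108 and 97.9 in monocyte/macrophage cells.

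Of 10 tested genes of conventional dendritic cells in general, 8 were higher and none lower, with a median of 1.58. Zbtb46 was at 44.4 and 33.6 CPM against 3.07 and 0.492 in ROS- monocytes (4.73 ± 0.69, adjusted p = 2.09e-06). Batf3, a transcription factor needed for the cDC1 branch, was at 51.8 and 33.6 CPM (2.32), and its partner Irf8 at 1374 and 876 against 345 and 345 CPM (1.67 ± 0.20, adjusted p = 3.09e-08). Dpp4 (3.15), Kit (1.88) and Id2, an inhibitor of alternative lineages (0.62), were higher too. The integrin Itgax, which encodes CD11c, did not pass (0.44, adjusted p = 0.443).

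The markers of single branches gave fewer calls. Of 8 tested cDC2 genes, 5 were higher and 2 lower, with a median of 2.16. Irf4 was at 7.41 and 24.7 CPM (3.05, adjusted p = 0.00608). The lectins Clec10a (3.99) and Mgl2 (5.79) and Cd7 (2.93) rose, though 14 of 28 UMIs of Mgl2 came from 1 cell; the inhibitory receptor Sirpa (-0.66) and Klf4 (-0.93) fell. Of 7 tested cDC1 genes Irf8 was higher, Ppt1 (-1.19) was lower and the others did not pass. The chemokine receptor gene Xcr1 had no UMI in the dendritic sums, and Clec9a, a receptor for dead-cell actin, was at 18.5 and 12.4 CPM (0.93, adjusted p = 0.414). None of 4 tested plasmacytoid genes passed in either direction. The difference between the 2 branches was not itself tested.

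Of 12 tested costimulatory and checkpoint genes 8 were higher and none lower, with a median of 1.35. With the cells that held neither Ccr7 nor more Cd209a, 4 were higher and 1 lower, with a median of 0.54. Cd80 and Cd86, the ligands of CD28, were at 59.2 and 90.1 CPM and 392 and 371 CPM in dendritic sums against 9.72 and 19.8, and 178 and 161, in ROS- monocytes. The log2 differences were 2.32 ± 0.30 (adjusted p = 2.12e-07) and 1.18 ± 0.19 (adjusted p = 1.36e-05), and no dendritic sum overlapped a monocyte sum for either gene. Cd40, which receives CD40 ligand from T cells, was at 441 and 214 CPM against 105 and 109 (1.51 ± 0.21). Cd83, which stabilises surface MHC class II and CD86, was at 574 and 341 against 125 and 62.6 (2.33 ± 0.19). Among inhibitory ligands Cd200 stood at 299.9 and 212 CPM against 2.56 and 6.23 (5.72 ± 0.30), and Pdcd1lg2, encoding PD-L2, rose by 1.74. Cd274, encoding PD-L1, was at 267 and 334 CPM against 163 and 275, so the sums overlapped (0.47, adjusted p = 0.154). Icosl (2.32) and Tnfsf9 (1.19) rose. Tnfsf4 and Cd70 had 7 UMIs each in dendritic cells and 1 each in monocyte/macrophage cells and were too low to test.

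Most MHC class II genes did not pass the test against monocytes. Of 11 tested class II genes 3 were higher, H2-DMb2, H2-Oa (1.63) and H2-Ob (2.17), all of which encode editors of peptide loading in endosomes. H2-DMb2 had been put forward as a marker of these cells from these data, so its call is not independent support. It was at 315 and 349.7 CPM against 144 and 38.7 in ROS- and 26.1 and 18.7 in ROS+ monocytes. The invariant chain gene Cd74 was at 26296 and 24262 CPM against 26251 and 18315 in ROS- and 22108 and 11171 in ROS+ monocytes (0.22 ± 0.21, adjusted p = 0.659). H2-Aa was at 10349 and 8365 CPM against 9430.2 and 6034 in ROS- monocytes (0.32 ± 0.21, adjusted p = 0.445). The dendritic sums lay at the upper end of the monocyte range for both genes. Both turned slightly negative with Ccr7 cells alone (-0.22 and -0.08). The class II transactivator Ciita did not pass (0.76, adjusted p = 0.0894), and Ctss, the cathepsin that trims the invariant chain, was lower (-0.99 ± 0.20, adjusted p = 0.000426). Of 12 class I genes, Psme2, a proteasome activator subunit, was higher (0.66) and none was lower.

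**Figure D3:**
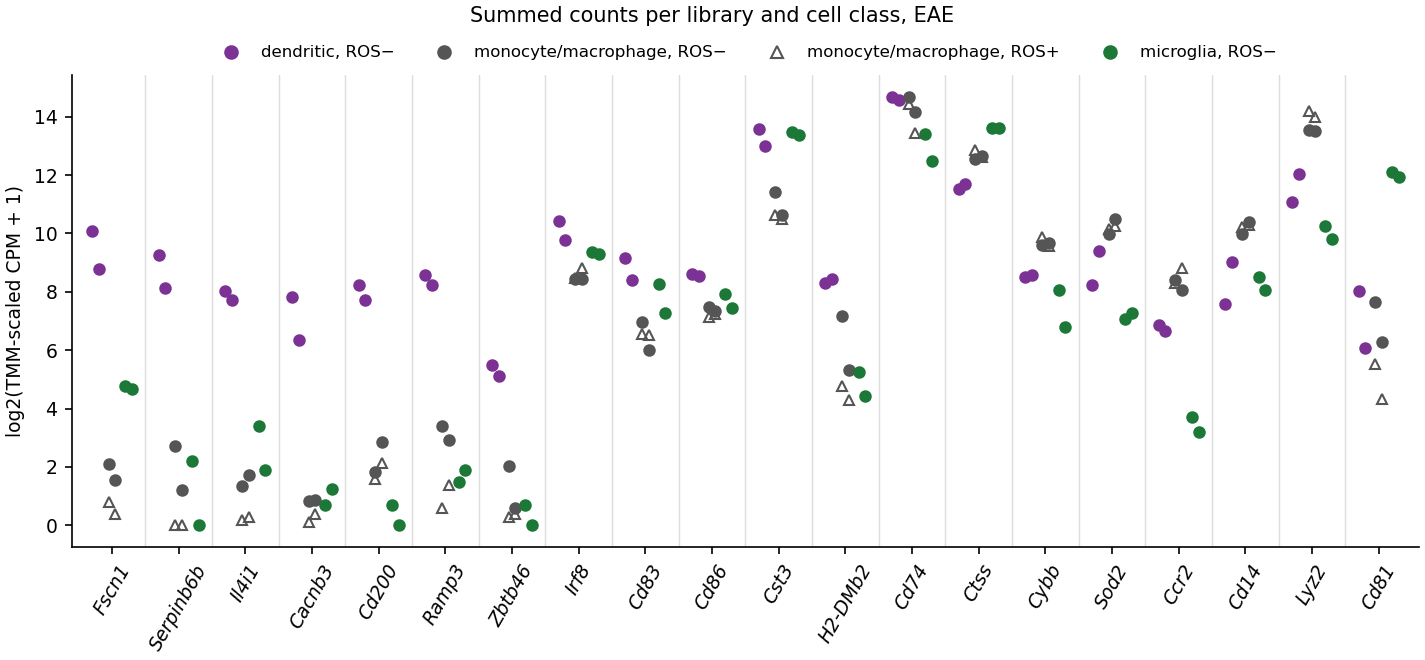
Log2(normalised CPM + 1) of 20 genes in each library and class sum. Dendritic sums lie above all monocyte/macrophage and microglia sums for Fscn1 (1092 and 443 CPM) and overlap the monocyte range for Cd74 (24262 CPM in library 2).

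Cytokine genes were mixed, with 3 of 11 tested higher and 4 lower. Il12b, the p40 chain of interleukin-12 and interleukin-23, was at 163 and 12.4 CPM against 0.512 and 0.820 in ROS- monocytes (6.36 ± 0.75, adjusted p = 2.2e-08). In library 1 its 44 UMIs came from 6 of 24 Ccr7 cells, 61.4% of them from 1 cell, and in library 2 7 UMIs came from 2 of 34; none were found in the other subsets. Il15 (1.79) and Ebi3 (1.12) were higher, though Il15 turned to -0.92 in the cells with neither gene. Tnf was at 18.5 and 44.2 CPM against 78.0 and 90.3 (-1.28 ± 0.29, adjusted p = 0.00188), and Il6 and Il1a were lower by the same log2 difference of -1.34. Il1b stood at 2362 and 2672 CPM against 2533 and 3374 and did not pass (-0.22, adjusted p = 0.601). Of 13 chemokine genes not used in the rule, 1 was higher and 5 lower, with a median of -0.87. Ccl6 was among the lower (-0.87), and Ccl5 did not pass (0.61, adjusted p = 0.0823). The monocyte chemokine receptor gene Ccr2 was at 115 and 101 CPM against 341 and 268 in ROS- and 313 and 452 in ROS+ monocytes (-1.48 ± 0.22, adjusted p = 2.14e-06).

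Genes of NF-kB signalling, the pathway that drives dendritic maturation, were higher in 9 of 13 tested cases and lower in none, with a median of 1.02. With the cells that held neither Ccr7 nor more Cd209a, 4 of 13 were higher, with a median of 0.33. Rel, encoding c-Rel, was at 259 and 155 CPM against 38.1 and 33.3 (2.48 ± 0.22, adjusted p = 3.07e-11), without overlap. Nfkb1 (1.14), Nfkb2 (1.02) and the adaptor Traf1 (2.30) also rose. Cytoskeletal genes, a list that includes Fscn1, were higher in 8 of 12 cases and lower in none, with a median of 1.24, and with the cells that held neither gene 2 of 12, with a median of 0.46. Lsp1, a leukocyte actin-binding protein, was at 1285 and 800.1 CPM against 196 and 132 (2.66), and the abundant Actb at 20768 and 22023 against 7929 and 9520.1 (1.30). Actg1 (1.20), Basp1 (1.09) and Marcks (1.34) rose, although Marcks stood at -0.38 in the cells with neither Ccr7 nor more Cd209a. Tmsb10, a regulator of actin monomers, did not pass (0.52, adjusted p = 0.131). In the list of myeloid transcription factors 9 of 18 genes were higher, among them the nuclear receptor Nr4a3 (3.88) and Runx3 (1.05), and 6 were lower.

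Genes of phagocytes were lower in dendritic cells. All 12 tested Fc receptor and complement genes were lower, with a median of -1.23, among them Fcer1g (-1.01), Fcgr1 (-0.95), C1qa (-1.06) and C3 (-1.14). The count was 12 of 12 with Ccr7 cells alone (median -2.48) and 9 of 12 with the cells that held neither gene. Of 12 lysosomal genes 9 were lower, such as Ctsb (-1.28), and 1 was higher, Cst3, a cathepsin inhibitor abundant in conventional dendritic cells, at 12108 and 8183 CPM against 2772 and 1571 (2.25 ± 0.21, adjusted p = 1.4e-10). Of 14 monocyte and macrophage markers 11 were lower and 1 was higher, with a median of -1.56. With DESeq2 11 were lower and none was higher. Cd14 (-1.74) and Cebpb (-1.38) fell. Other large decreases were those of Apoc2, a lipoprotein component, at 29.6 and 131 CPM against 564 and 429 (-2.39 ± 0.31), the inhibitory lectins Clec4a2 (-2.64) and Clec4a3 (-2.40), the adhesion receptor Cd84 (-2.41), the neutrophil-type collagenase Mmp8 (-2.75), Sash1 (-2.55) and Ptplad2 (-2.85). Arg1, an arginine-degrading enzyme of tissue macrophages, was at 29.6 and 533 CPM against 868 and 2268 (-2.72 ± 0.30), with a wide gap between the dendritic libraries. The transcription factor Maf had 3 UMIs in dendritic and 1609 in monocyte/macrophage cells, 12.2-fold lower relative to all UMIs, with a counting interval of 4.16 to 59.1-fold.

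Genes of the oxidative response bear on the property by which the study sorted its cells. Of 7 NADPH oxidase genes, which encode the enzyme that makes superoxide, 1 was lower and none higher. That gene was the catalytic subunit Cybb, at 359 and 379.7 CPM against 784 and 819 in ROS- and 947 and 753 in ROS+ monocytes (-1.10 ± 0.23, adjusted p = 0.000538). With Ccr7 cells alone 5 of the 7 were lower, with a median of -0.93, and with the cells that held neither gene 1 was lower, with a median of -0.051. The fit on Ccr7 cells called more genes lower in general, 1055 of 10732 against 470 of 10530 in the main fit. Ncf1, a cytosolic subunit, did not pass (0.51, adjusted p = 0.104). Of 13 ROS-scavenging genes 4 were lower, including mitochondrial Sod2, at 304 and 682 CPM against 1022 and 1431 (-1.35 ± 0.21), Hmox1 (-2.20) and Prdx6 (-1.18). Of 14 glutathione genes 3 were lower, led by the membrane transferase Mgst1, at 14.8 and 84.8 CPM against 289.9 and 441 (-2.78 ± 0.27, adjusted p = 3.01e-10). None of these lists had a gene that rose. Of all tested genes 5.22% were higher and 4.46% lower, so for lists of this size the lack of a rise is near the general share. Of 12 coagulation genes 5 were lower, including F10, encoding coagulation factor X (-2.19 ± 0.23), and Thbs1, encoding thrombospondin 1 (-3.00 ± 0.41), at 3.7 and 10.6 CPM against 56.3 and 69.5.

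Lists on proliferation, interferon and handling showed little. Of 16 cell-cycle genes 1 was higher and 1 lower, and Mki67 did not pass (-1.40, adjusted p = 0.229). Of 12 interferon-response genes 2 were higher and none lower. Of 11 genes of the dissociation response 2 were lower, including Fos (-1.27), and none higher. Markers of other cells that CD11b sorting can carry were few: in the dendritic sums of libraries 1 and 2, T and natural killer markers summed to 21.5 and 5.04 CPM (47.9 and 7.33 in monocytes) and 7 of 10 were at 0 in both. B-cell markers were at 0 in 5 of 7 cases, including Cd79a and Ms4a1, all 6 mast-cell and basophil markers were at 0, and neutrophil markers summed to 0 and 65.5 CPM. The microglial markers outside the rule summed to 767 and 495 CPM, against 1661 and 1041 in monocyte/macrophage cells.

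Microglia, the resident macrophages of the cord, formed the other comparison. Of the same 10530 genes 2768 passed (26.3%), 1461 higher (13.9%) and 1307 lower (12.4%), and sums did not overlap for 61.5% of them, with a median over all genes of -0.09. The microglia class was chosen to lack monocyte genes, so genes that travel with those differ in part by that choice. The comparisons share the dendritic sums and were not tested against each other. Fscn1, at 26.6 and 24.7 CPM in microglia of libraries 1 and 2, was again higher (4.93 ± 0.25, edgeR adjusted p = 4.16e-19). Cytip, a regulator of leukocyte adhesion, was at 504 and 360 CPM against 2.42 and 5.49 (7.04 ± 0.33), and Ccnd2 at 792 and 1007 CPM against 9.67 and 4.12 (6.84 ± 0.29). Klrk1, encoding the activating receptor NKG2D, was at 311 and 166 against 4.84 and 1.37 CPM (6.36). Amica1, an adhesion molecule, had 184 UMIs against 2, 235-fold higher with a counting interval of 64.0 to 1951-fold. Dendritic and microglial sums did not overlap for these genes, which for all but Fscn1 was a condition of being named. Ramp3 (7.41), Serpinb6b (7.75), Socs2 (6.42), Traf1 (6.39) and Cd80 (4.69) were higher as well. Class II genes were higher in 8 of 11 cases: Cd74 was at 26296 and 24262 CPM against 10862 and 5766 (1.67 ± 0.22) and H2-Aa at 10349 and 8365 CPM against 2863 and 1310.3 (2.26 ± 0.22). Among the decreases, the tetraspanin Cd81 was at 263 and 67.1 CPM against 4462 and 3880.0 (-4.95), and the chemokines Ccl12, at 48.1 and 30.0 CPM against 1426 and 1619 (-5.36), and Ccl2 (-4.66) were lower too. Crybb1 (-5.13), Ptgs1, encoding cyclooxygenase 1 (-5.11), Ldhb (-5.03) and Daglb (-4.71) were lower too. Both dendritic sums lay below both microglial sums for them, again a condition of being named. Lag3 had 4 UMIs in dendritic cells and 597 in microglia. All 10 markers of microglia outside the rule were lower, with a median of -4.32, and the transcription factor Bhlhe41 had 1 UMI against 482, 189-fold lower with a counting interval of 33.8 to 7484-fold. Fcrls, an Fc receptor-like marker, had 2 UMIs against 572 (112-fold, 30.9 to 929-fold).

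The Ccr7 and Cd209a cells were not compared by a test, as the Cd209a cells numbered 6 and 9 in the ROS- libraries and none in the ROS+ libraries. In Ccr7 cells of libraries 1 and 2, Serpinb6b was at 1165 and 818 CPM, against 31.2 and 0 in Cd209a cells and 0 and 13.9 in cells with neither. Cacnb3 was at 428 and 239 CPM against 0 and 0 in Cd209a cells. Il4i1 was at 435 and 621 CPM in Ccr7 cells; the 218 CPM in Cd209a cells of library 1 came from 7 UMIs in 1 cell. Each of these genes was higher in both Ccr7 sums than in any other subset sum. Cst3, at 18989 and 15810.1 CPM, and Irf8, at 2196 and 1535 CPM, were also highest in Ccr7 cells, against 1839 and 2506, and 842 and 589.5 CPM, in Cd209a cells. Ccr2 had the opposite order, at 35.1 and 15.9 CPM in Ccr7 cells, 436 and 400.1 in Cd209a cells and 115 and 97.3 in cells with neither. Cd74 was abundant throughout, between 20014 and 32436 CPM across the 6 subset sums.

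**Figure D4:**
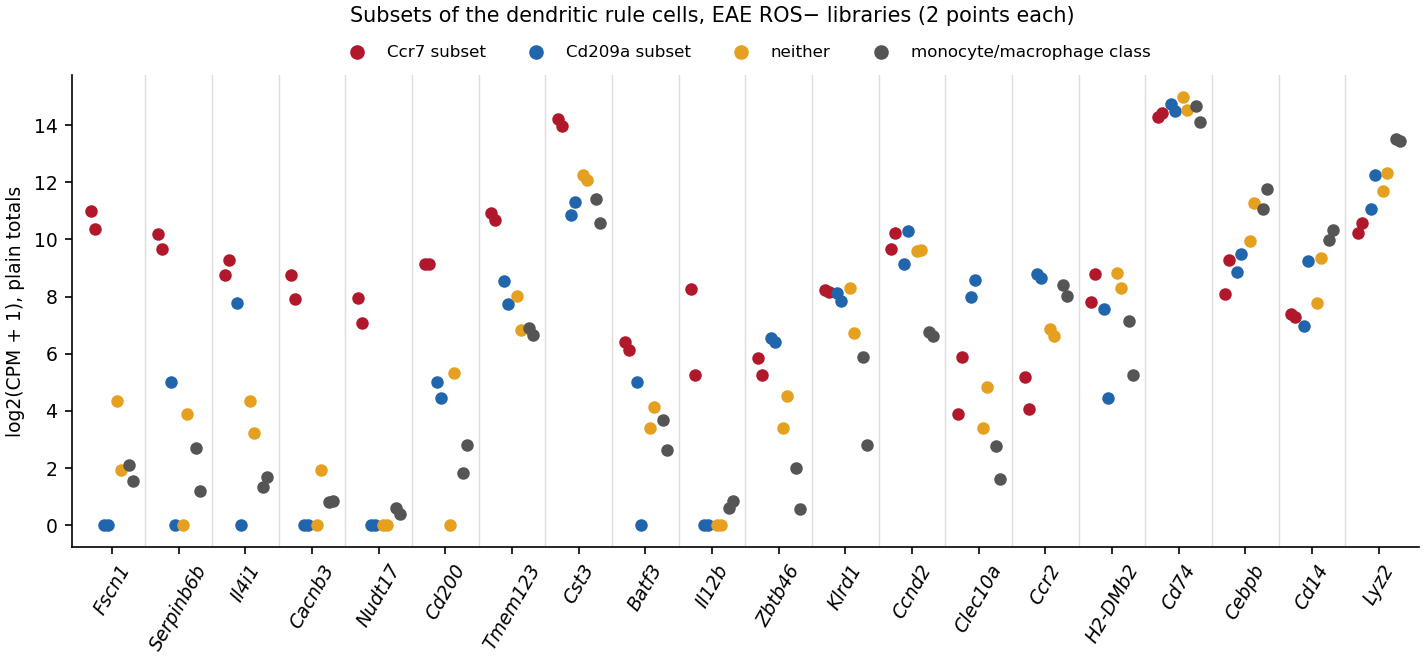
Log2(CPM + 1) in the ROS- libraries for the Ccr7, Cd209a and neither subsets and for monocyte/macrophage cells, 1 point per library. Summed Fscn1 is highest in the Ccr7 cells (2056 and 1328 CPM), though only 14 of 24 and 16 of 34 of them held a UMI of it. Ccr2 is lowest in the Ccr7 cells (35.1 and 15.9 CPM).

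The 11 cells that met the rule in the ROS+ libraries, 3 and 8 cells with 84309 UMIs in all, allowed values only. Of them 1 per library was a Ccr7 cell, and none was a Cd209a cell. Fscn1 had no UMI, which allows up to 35.6 CPM when 3 UMIs are taken as the limit of a count of 0. Il4i1 had 8 UMIs, or 94.9 CPM (exact Poisson 95% interval 41.0 to 187, counting error only). Lyz2 was at 8682 and 7681 CPM in ROS+ libraries 1 and 2, against 2080 and 3969 CPM in the dendritic cells of ROS- libraries 1 and 2. Saa3, an acute-phase protein, was at 5577 and 2025 CPM against 68.1 and 314, and at 2128 and 1439 CPM in ROS+ monocyte/macrophage cells. Cd14 was at 1813 and 1503 CPM against 183 and 489, Sod2 at 1236 and 2588 against 294 and 648, and Cybb at 742 and 981 against 348 and 361. These values rest on few cells: in ROS+ library 1 a single cell held 22245 of the 36398 UMIs. That cell carried 289 of 316 UMIs of Lyz2, 195 of 203 of Saa3 and 65 of 66 of Cd14. Without the deepest cell of each library, ROS+ libraries 1 and 2 had 1908 and 8091 CPM of Lyz2, 565 and 2080 of Saa3, 70.7 and 1168 of Cd14, 283 and 2279 of Sod2, and 424 and 826 of Cybb. The ranges of the gates then overlapped for Lyz2, Cd14 and Sod2, and the ROS+ values stayed above the ROS- values for Saa3 and Cybb. In ROS+ library 1, however, that order rested on 8 UMIs of Saa3 and 6 of Cybb in 2 cells, so it is not secure. Fewer Ccr7 cells in the ROS+ sorts and a different state of the same cells cannot be told apart with 11 cells.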

How the data were processed

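CD11b+ spinal cord cells of EAE and healthy mice were profiled with droplet 3' sequencing. For each of 6 libraries the authors deposited a matrix of UMI counts. Cell Ranger 2.0.1, Seurat 3, R 3.4.2 and the mm10 build are named in the submitters' processing notes (roles and settings: not given in the sources used here). Files held 9079 barcodes, and the design text states 8701 cells. A barcode was kept with 200 genes or more and no more than 10% mitochondrial UMIs. The members, classes and gene lists were chosen with earlier results of these data known. No doublet caller was run, so pairs of cells remain.

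Counts were summed per library and class where it had at least 20 cells (8 sums: 2 dendritic, 4 monocyte/macrophage, 2 microglia); the added fit on cells with neither gene used 13 and 51 cells. R 4.3.3 and edgeR 4.0.16 were used for the tests, with TMM scaling, a filter at a minimum count of 10, the library as a block, the quasi-likelihood test and Benjamini-Hochberg adjustment at 0.05. Residual degrees of freedom were 2, against a median of 37.9 prior degrees of freedom. The p-values thus rest mostly on a spread pooled across genes, and little on that of each gene between the 2 ROS- libraries. The block was used because classes come from the same libraries. Normalised CPM used TMM factors for class sums; subset, ROS+ and threshold values are plain CPM. Log2 differences carry edgeR's prior count. DESeq2 1.42.0 was an alternative. The procedure was also tested on simulated data. Shares used exact intervals (scipy 1.17.1; Python 3.11.15). Named genes were those with the largest changes among genes passing the test at an average log2 CPM of at least 5 without overlap (up to 12 a direction), up to 4 members of each list by p, a fixed set of dendritic genes and the rule genes. Others, including those that describe subsets and ROS+ cells, were chosen after their values were seen. Reads of overlapping or near-identical genes may be split or shared, since the counting rules were not at hand.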

Additional observations from a re-analysis of the deposited data

How the results depend on the processing

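In edgeR without the replicate block for library, 429 genes were higher and 322 lower than in monocyte/macrophage cells (397 and 300 of them also called with the block), and 1188 and 1213 than in microglia. With DESeq2 the counts were 335 and 203, and 1009 and 778. Leaving out each library in turn gave 80 to 538 higher and 13 to 510 lower genes against monocytes, and 251 to 1402 and 151 to 1326 against microglia; the low ends are 1 dendritic sum (80 and 13 without ROS- library 2, 172 and 51, and 683 and 355, without ROS- library 1), fitted without the block, with the lone sum assumed to vary like the others. The high ends came from leaving out a ROS+ library, whose only sum is taken up by its block term. That could change only the filter, the scaling and the estimated spread, so the high ends do not check the class difference. The difference in share ran from -5.88 to -2.40 points, and the mean over both ROS- libraries of the share of Ccr7 cells, 46.0%, from 36.2 to 55.8%. Added after seeing the data, Ccr7 cells alone gave 506 higher and 1055 lower genes against monocytes and 949 higher against microglia, and cells with neither gene 120 and 177, and 757 lower against microglia. Without a count filter 467 were higher and 539 lower than in monocytes, and with a threshold of 8 UMIs 448 and 639, which moves the balance of directions. Among cells with under 3 monocyte UMIs that mean was 96.7%.

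Of the values named for single genes, 12 changed sign: against monocytes Cd74 at a threshold of 8 UMIs (-0.068), Itgax (-0.23), Clec9a (-0.57), Cd74 (-0.22) and H2-Aa (-0.079) with Ccr7 cells alone, and Cd63 (-1.07), Cd274 (-0.27), Il12b (-4.93), Il15 (-0.92), Ccl5 (-0.089) and Marcks (-0.38) with cells holding neither gene; against microglia Fscn1 (-1.74) with the latter. The cause was not tested, and the value of Il12b, with no UMI in those cells, depends on the prior count. Of 101 gene values against monocytes, calls were lost for 12 with DESeq2, 16 without the block, 29 with cells holding neither gene, and 48 and 65 with 1 dendritic sum (without ROS- library 1 and 2). Fits on cells with under 3 monocyte UMIs (10 and 15 cells) and on Ccr7 against Cd209a cells were not run. With 137 cells in 2 sums, low genes such as Irf4, and single-cell sources such as Il12b, are the least precise.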

Other observations

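The 15 Cd209a cells, 6 and 9 in ROS- libraries 1 and 2, carried genes of interferon response and of the cDC2 branch that were chosen here after their values were seen. Cxcl10, an interferon-induced chemokine, stood at 3179 and 1832 CPM, against 316 and 196 in Ccr7 cells and 239.8 and 250.3 in cells with neither. Its 102 and 87 UMIs came from 5 of 6 and 7 of 9 cells, with 46.1 and 29.9% from a single cell. Cxcl11 was at 686 and 484 CPM. Clec10a was at 249 and 379 CPM, against 14.0 and 58.4 in Ccr7 cells and 9.59 and 27.8 in cells with neither. Cd7, a membrane glycoprotein of lymphoid and some dendritic cells, was at 156 and 232 CPM, and at 0 and 0 in Ccr7 cells. With 15 cells no test was made.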
